A study of Mus musculus with 9 samples.

Results

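Transcripts of 8 mouse Toll-like receptors and 2 of their co-receptors were followed in sorted bone marrow cells of Spop knockout and wild-type mice. The set was chosen by symbol: Tlr1, Tlr2, Tlr4, Tlr6, Tlr7, Tlr8, Tlr9, Tlr13, Cd14 and Ly96. All 10 were present in each deposited gene table, out of 45076 genes listed for neutrophils and 37187 for LSK cells. RNA-seq had been run on 9 libraries: 3 knockout and 2 wild-type libraries of Ly6G-positive neutrophils, and 2 knockout and 2 wild-type libraries of LSK cells, the marrow fraction that carries the blood stem cells and early progenitors. Knockout animals are labelled Spop(D/D) and wild-type animals Spop(+/+), and all came from bone marrow of mice aged 4 to 12 weeks; no treatment is labelled. The sources used here give neither the Cre driver nor the deleted exons nor the number of animals per library, so p-values reflect library-to-library spread only, and part of it may be technical.

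Toll-like receptors are membrane proteins that recognise conserved parts of microbes and, through the adaptor MyD88, switch on NF-kB and inflammatory genes. TLR1, TLR2, TLR4 and TLR6 act at the cell surface on lipoproteins and lipopolysaccharide, whereas TLR7, TLR8, TLR9 and TLR13 meet nucleic acids inside endosomes. CD14 hands lipopolysaccharide to TLR4, and the protein encoded by Ly96, also called MD-2, holds it in the TLR4 complex. SPOP, the protein deleted here, picks the targets of a cullin-based ubiquitin ligase, and the title of the series names MyD88 as such a target. Only transcripts, not proteins, were measured.

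The libraries did not all match their labels equally well. Counted reads ran from 21012702 to 27434086 in neutrophil libraries and from 18827892 to 20264417 in LSK libraries. The second LSK knockout library is labelled as neutrophils in its cell type field and as LSK in its title; it held 0 reads of Ly6g, like the other LSK libraries, and 644 CPM (reads scaled to library size with TMM factors) of the stem cell receptor gene Kit, which stood at 605 CPM in the other knockout library and at 990 and 1049 CPM in wild-type LSK libraries. The second wild-type neutrophil library stood apart: 12 neutrophil markers summed to 37100 CPM there and to 208600 to 644800 CPM in the other 4 neutrophil libraries, and Ly6g was at 85.7 CPM against 351 to 914 CPM. In the same library 11 B cell markers summed to 2155 CPM, 11 T and NK cell markers to 1048 CPM and 7 dendritic cell markers to 335 CPM. The third knockout neutrophil library carried 294300 CPM of S100a8 and 18210 CPM of 9 red cell markers. These red cell markers summed to 1719 and 3640 CPM in wild-type neutrophil libraries, and to 35.3 and 2.02 CPM in the first and second knockout libraries. Spop itself stood at 158, 178 and 210 CPM in knockout neutrophils, against 135 and 194 CPM in wild-type neutrophils, and at 312 and 306 CPM in knockout LSK cells, against 380 and 390 CPM in wild-type LSK cells. In LSK cells Spop fell (log2 fold change -0.32, adjusted p = 0.0118, edgeR), and in neutrophils the genotypes overlapped (0.15, adjusted p = 0.901). With the deleted exons unknown, reads from the rest of the gene may remain, so the overlap in neutrophils does not check the labels.

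Tlr1 and Tlr6 lie next to each other on the minus strand of chromosome 5, 18467 bases apart (GRCm38, GENCODE M21: Tlr1 from 64924679 to 64933563, Tlr6 from 64952031 to 64960097). Their coding sequences shared 454 windows of 50 bases, 19.4% of those of Tlr1 and 19.2% of those of Tlr6, while no other pair of the 10 genes shared any. The longest identical run was 229 bases. The following coding stretch is shown with 30 bases on either side of that run because reads falling inside it cannot be assigned to either gene. It covers chr5:64925507-64925795 in Tlr1 and chr5:64953798-64954086 in Tlr6, and capitals mark the bases that differ.
Tlr1: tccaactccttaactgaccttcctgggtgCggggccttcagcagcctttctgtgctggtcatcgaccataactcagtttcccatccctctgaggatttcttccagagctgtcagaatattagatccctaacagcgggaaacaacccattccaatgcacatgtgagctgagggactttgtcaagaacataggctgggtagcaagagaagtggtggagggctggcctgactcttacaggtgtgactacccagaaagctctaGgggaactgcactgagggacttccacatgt
Tlr6: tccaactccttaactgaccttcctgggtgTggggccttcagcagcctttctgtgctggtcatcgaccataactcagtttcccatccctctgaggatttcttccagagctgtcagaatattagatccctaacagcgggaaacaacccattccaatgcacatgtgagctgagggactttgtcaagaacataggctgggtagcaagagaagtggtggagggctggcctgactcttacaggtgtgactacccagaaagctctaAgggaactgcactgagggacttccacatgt
The 289 bases hold 2 differences. The handling of such reads is not stated in those sources, so the levels of Tlr1 and Tlr6 are uncertain. None of the 10 genes shares exon bases with an overlapping gene in that annotation.

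Promoter sequence was available from RefSeq (GRCm38.p6, 250 bases before to 50 after a start site) for Tlr1, Tlr2, Tlr6, Tlr8, Tlr9 and Tlr13; Tlr4, Tlr7, Cd14 and Ly96 had no entry. Shown are windows of Tlr2, the Toll-like receptor with the highest level per length in knockout LSK cells, and of Tlr6, Tlr8 and Tlr13, whose levels in neutrophils did not overlap between genotypes. They lie at chr3:83841559-83841858 (minus strand), chr5:64959117-64959416 (minus), chrX:167264280-167264579 (minus) and chrX:106143025-106143324 (plus). Capitals mark matches on either strand to 5 letter patterns of myeloid and inflammatory transcription factors.
Tlr2: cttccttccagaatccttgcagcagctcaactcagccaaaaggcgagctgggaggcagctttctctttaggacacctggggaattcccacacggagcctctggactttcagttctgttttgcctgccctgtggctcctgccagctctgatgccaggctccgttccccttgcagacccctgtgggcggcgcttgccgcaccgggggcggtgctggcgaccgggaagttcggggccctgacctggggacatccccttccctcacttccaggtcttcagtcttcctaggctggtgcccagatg
Tlr6: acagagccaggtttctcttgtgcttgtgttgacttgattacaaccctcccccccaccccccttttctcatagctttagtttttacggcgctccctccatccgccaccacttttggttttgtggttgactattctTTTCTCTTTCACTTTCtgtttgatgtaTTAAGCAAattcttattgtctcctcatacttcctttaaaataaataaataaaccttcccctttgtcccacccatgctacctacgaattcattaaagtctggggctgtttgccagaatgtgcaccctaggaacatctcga
Tlr8: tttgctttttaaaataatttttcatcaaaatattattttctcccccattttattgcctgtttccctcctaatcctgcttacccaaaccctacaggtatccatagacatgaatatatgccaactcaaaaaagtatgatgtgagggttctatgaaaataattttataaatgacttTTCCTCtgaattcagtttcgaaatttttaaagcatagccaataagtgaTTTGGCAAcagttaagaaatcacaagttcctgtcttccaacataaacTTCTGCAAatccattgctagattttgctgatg
Tlr13: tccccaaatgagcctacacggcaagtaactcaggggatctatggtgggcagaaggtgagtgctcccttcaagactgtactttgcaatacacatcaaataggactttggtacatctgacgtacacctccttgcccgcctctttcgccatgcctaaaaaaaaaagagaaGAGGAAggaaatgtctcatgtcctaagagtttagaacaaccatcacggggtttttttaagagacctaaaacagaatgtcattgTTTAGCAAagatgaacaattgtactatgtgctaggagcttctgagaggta
The Tlr2 window held no match to any pattern in the form searched. Because the NF-kB pattern was narrow, this does not show that the Tlr2 window lacks NF-kB sequences. Tlr6 has 2 windows. The other one, at chr5:64959999-64960298, includes the annotated start of this minus-strand gene and held no match to any pattern. The Tlr6 window shown lies inside the annotated gene and was chosen for its matches. It held 2 overlapping matches to the IRF repeat, GAAA and GAAA with 2 free bases between them. Their first bases lie at -116 and -110 from the start site of that window. That pattern occurred in 3.45% of 32544 promoter windows. GAGGAA, the pattern searched for the myeloid factor PU.1 and other ETS proteins, was matched once in the Tlr8 window and once in the Tlr13 window. It occurred in 28.1% of all windows and is longer than the GGAA that ETS proteins share. The C/EBP pattern TTGCNNAA was matched 1 time in Tlr6, 2 times in Tlr8 and 1 time in Tlr13, against 10.8% of all windows with a match. No match was found in these 4 windows to the AP-1 pattern TGANTCA (7.79% of all windows) or to the NF-kB pattern searched (0.415%). That NF-kB pattern left only 1 base free, and other forms of it were not looked for. Matches describe letters and are not binding sites.

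In neutrophils the most abundant members per length were Cd14, Tlr13 and Tlr2, and in LSK cells Tlr2, Tlr4 and Tlr7. Levels per length are CPM per kilobase of exon; the populations come from separate tables and were scaled apart, so no test was made between their levels. In knockout neutrophils Cd14 averaged 110 ± 67.0 CPM per kilobase, Tlr13 54.5 ± 22.4 and Tlr2 53.2 ± 27.5 (SD, n = 3), with overlapping libraries. In wild-type neutrophils the order was Tlr13 with 24.0 ± 2.69, Cd14 with 17.97 ± 1.85 and Tlr2 with 17.6 ± 7.53 CPM per kilobase (SD, n = 2). From Cd14 down to Tlr8 each member of the order overlapped the next one in wild-type neutrophils. In knockout neutrophils only 2 steps of the order were free of overlap, the one below Tlr2 and the one above Tlr9, which came last in every group.

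The order in LSK cells was sharper. In knockout LSK cells Tlr2 averaged 14.9 ± 3.48 CPM per kilobase, Tlr4 10.4 ± 0.0238, Tlr7 4.72 ± 0.0868 and Cd14 4.14 ± 0.232 (SD, n = 2), and no library of one overlapped the next. In wild-type LSK cells Tlr7 came first with 12.8 ± 0.570 CPM per kilobase, followed by Tlr2 with 10.6 ± 1.10, Tlr4 with 8.20 ± 0.453 and Ly96 with 4.36 ± 0.646 (SD, n = 2), again without overlap between neighbours. The 4 nucleic acid receptors made up 16.9% and 15.6% of the summed level per length of the 8 Toll-like receptors in knockout LSK libraries, against 38.9% and 39.2% in wild-type LSK libraries. In LSK cells this share was mostly Tlr7, so it describes that gene rather than the class. Tlr8, Tlr9 and Tlr13 each averaged at most 0.295 CPM per kilobase in either genotype, and Tlr8 averaged higher in knockout. In neutrophils the same share was 40.4%, 49.4% and 49.2% in knockout libraries, against 46.6% and 59.9% in wild-type libraries, so the genotypes overlapped there.

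**Figure D1:**
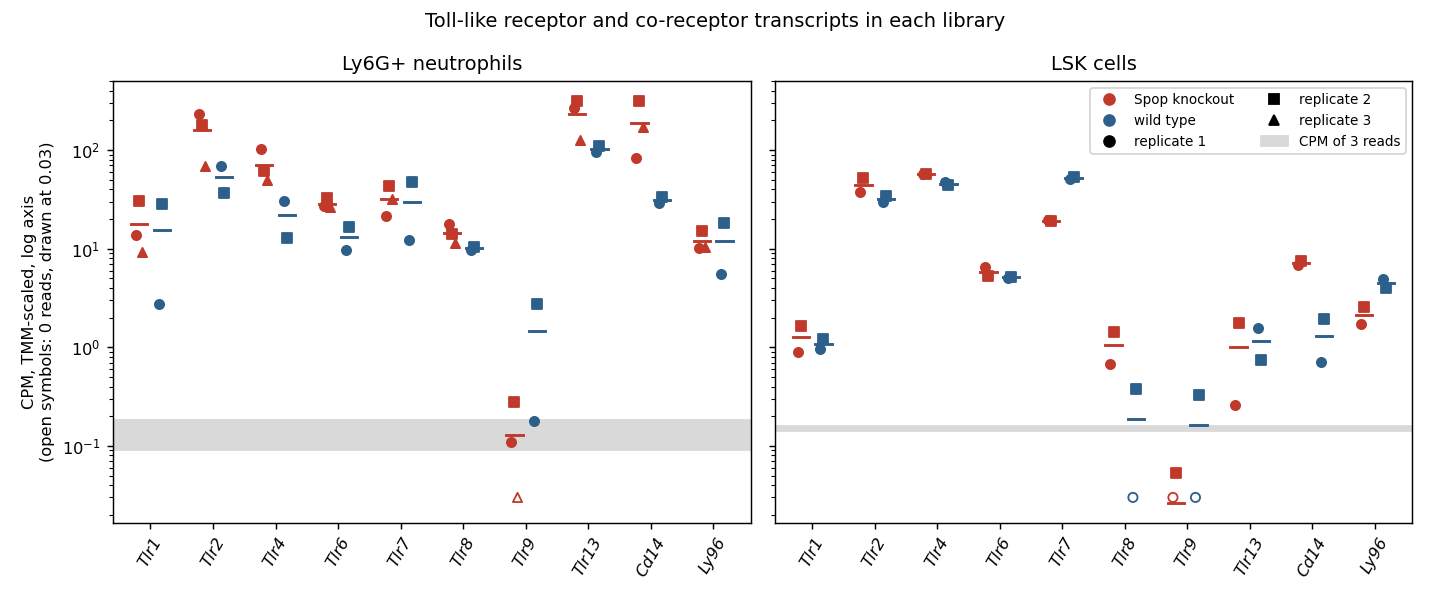
Levels of the 10 transcripts in each library (CPM, TMM-scaled, log axis) in neutrophils and LSK cells, with knockout libraries in red and wild-type libraries in blue; horizontal bars are group means and the grey band is the CPM of 3 reads. Tlr7 stood at 19.0 and 19.5 CPM in knockout LSK cells, below 50.5 and 53.8 CPM in wild-type LSK cells, while Tlr9 held at most 7 reads in every library except the second wild-type neutrophil library, which held 92.

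In knockout LSK cells the receptor set moved in both directions. Of the 9 members that passed the expression filter, 3 rose (Cd14, Tlr2 and Tlr4), 2 fell (Tlr7 and Ly96) and 4 did not pass an adjusted p of 0.05 (edgeR quasi-likelihood test, Benjamini-Hochberg over 13008 genes). Tlr9 was not tested. Across all genes tested 42.2% passed, 21% higher and 21.2% lower in knockout, so a count of 5 of 9 is near the background and is no result about the set. An unadjusted p under 0.05 was found for 6 of 9 members and 50.1% of all genes. Genotypes did not overlap for 5 members higher and 2 lower in knockout, where over all genes 34.6% were higher and 38.3% lower without overlap (72.9% in all). With upper-quartile scaling 2207 genes were higher and 3445 lower in knockout, where TMM scaling gave 2738 and 2756. The median log2 fold change of the members was 0.21, beside -0.03 over all genes. Of the 10 LSK markers 9 fell and 1 rose, with sums of 2913 and 3167 CPM in knockout and 5178 and 4914 CPM in wild type; the part of this shift in the receptor values was not tested.

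Tlr7, a receptor for single-stranded RNA, fell. It stood at 19.5 and 19.0 CPM in knockout LSK libraries, against 50.5 and 53.8 CPM in wild-type LSK libraries. The genotypes did not overlap, and the libraries of each differed by little. The log2 difference was -1.44 (SE 0.140, 95% confidence interval -1.74 to -1.14, adjusted p = 7.67e-06, edgeR), 2.71-fold lower in knockout. Leaving out any library kept it between -1.48 and -1.39. In bulk cells, fewer cells carrying a transcript and less of it per cell cannot be told apart. Of 9 plasmacytoid dendritic cell markers, a cell type rich in Tlr7, the summed level was 315 and 334 CPM in knockout and 354 and 324 CPM in wild-type LSK libraries, with 1 of the 9 genes at 0 reads in every library. By the same test 2 of the 9 rose, 3 fell, 3 did not pass and 1 was not tested. Bst2 stood at 112 and 121 CPM in knockout, against 95.6 and 86.7 CPM in wild type, and Lair1 at 88.8 and 87.6 CPM, against 69.4 and 49.9 CPM. Siglech, the defining marker among them, stood at 1.67 and 3.19 CPM in knockout, against 4.51 and 4.88 CPM in wild type. Also lower in knockout without overlap were Ccr9, Ly6d, Tcf4 and Cox6a2. Ccr9 stood at 2.137 and 1.596 CPM in knockout, against 13.59 and 15.25 CPM in wild type. Ly6d stood at 10.01 and 14.1 CPM in knockout, against 32.31 and 27.11 CPM in wild type. For Tcf4 the levels were 92.06 and 98.38 CPM in knockout, against 128 and 130.5 CPM in wild type. Tcf4, Bst2 and Lair1 made up most of each sum. The 11 B cell markers summed to 63.5 and 69.7 CPM in knockout and to 166 and 156 CPM in wild-type LSK libraries. The part of these cells in the Tlr7 result was not tested.

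The lipopolysaccharide receptor split. Cd14 stood at 6.88 and 7.45 CPM in knockout LSK libraries, against 0.710 and 1.92 CPM in wild-type LSK libraries. Both knockout libraries lay above both wild-type libraries, from 132 and 140 reads against 14 and 41. The log2 fold change was 2.43 (SE 0.435, interval 1.48 to 3.38, adjusted p = 0.000820, edgeR), a 5.39-fold rise. It ranged from 1.90 without the first wild-type library to 3.32 without the second. Ly96, by contrast, stood at 1.72 and 2.55 CPM in knockout, against 4.92 and 3.99 CPM in wild type, again without overlap. Its log2 fold change was -1.06 (SE 0.385, interval -1.89 to -0.22, adjusted p = 0.0422, edgeR). With all LSK libraries kept, the DESeq2 Wald test did not call Ly96 (adjusted p = 0.0871). The call was also lost without the first knockout library (log2 -0.76) and without the first or second wild-type library (log2 -0.89 and -1.20). Tlr4, the receptor both proteins serve, stood at 57.8 and 57.6 CPM in knockout, against 47.3 and 43.8 CPM in wild type. The 1.27-fold difference was small, with no overlap, and it was not called under upper-quartile scaling (adjusted p = 0.123), nor without the second knockout library (0.0582) or either wild-type library (0.0907 and 0.218).

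Cd14 is also a monocyte gene, and it had the highest mean level per length of the members in knockout neutrophils. The 11 markers of monocytes and macrophages summed to 595 and 850 CPM in knockout LSK libraries, against 137 and 184 CPM in wild-type LSK libraries; 1 of the 11 was at 0 reads in each knockout library and none in wild type. Of these markers 5 rose and 5 fell by the same test. Among those that rose were Ccr2 and Ly6c2, which mark inflammatory monocytes, with Ly6c2 at 218 and 352 CPM in knockout against 22.7 and 31.8 CPM in wild type. Ly6c2 also stood at 447 to 2410 CPM in the neutrophil libraries. Ccr2, Ly6c2 and Csf1r made up most of the knockout sums. Lower in knockout without overlap were Mertk, Vcam1, C1qa, C1qb and C1qc. Of these, C1qb stood at 0.417 and 0.319 CPM in knockout, against 10.45 and 12.43 CPM in wild type. Mertk, C1qa, C1qb and C1qc held at most 10 reads in a knockout LSK library. They entered the test through the wild-type libraries, so a difference was built into their selection. The 12 neutrophil markers summed to 293 and 228 CPM in knockout and to 227 and 237 CPM in wild-type LSK libraries. By the same test 2 of them rose (Cxcr2 and Mmp8), 2 fell and 5 did not pass. The part of monocytes, macrophages or neutrophils in the Cd14 result was not tested.

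Among the lipoprotein receptors, Tlr2, which pairs with TLR1 or TLR6, rose while its partners did not pass the test. Tlr2 stood at 37.4 and 52.2 CPM in knockout LSK libraries, against 29.6 and 34.3 CPM in wild-type LSK libraries. The lowest knockout library lay just above the highest wild-type one. Its log2 fold change of 0.49 (SE 0.170, interval 0.12 to 0.86, adjusted p = 0.0373, edgeR) did not pass once upper-quartile factors were used (0.0770), without the second knockout library (0.298), or without the first or second wild-type library (0.233 and 0.0709). Tlr1 was low, at 0.886 and 1.65 CPM in knockout and 0.964 and 1.22 CPM in wild type, and overlapped (log2 fold change 0.21, interval -0.999 to 1.42). Tlr6 stood at 6.46 and 5.27 CPM in knockout and 5.02 and 5.21 CPM in wild type (log2 fold change 0.20, interval -0.43 to 0.82).

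The other nucleic acid receptors lay near the limit of detection in LSK cells. Tlr8, an RNA receptor, held 13 and 27 reads in knockout LSK libraries, against 0 and 8 reads in wild-type LSK libraries. It entered the test through the knockout libraries, so a difference was built into its selection, and it did not pass (adjusted p = 0.0617, edgeR). It did pass in the fits without the first knockout library or the second wild-type library (0.0227 and 0.0190). Tlr13, which recognises bacterial ribosomal RNA in mice, held 5 and 33 reads in knockout and 31 and 16 reads in wild type, and the genotypes overlapped. Without the second knockout library its log2 fold change was -2.12, without the first it was 0.64, and neither passed. Tlr9, the receptor for unmethylated CpG DNA, held 0 and 1 reads in knockout and 0 and 7 reads in wild type. A count of 3 reads corresponds to 0.141 to 0.160 CPM in these libraries, and no fold is given for Tlr9.

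**Figure D2:**
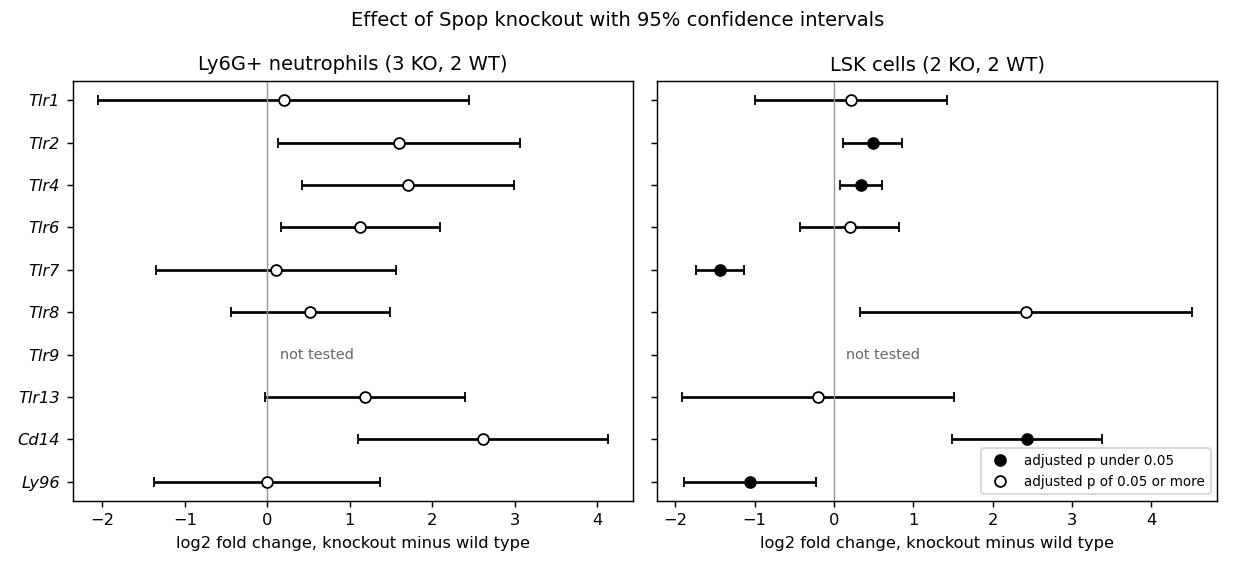
Log2 fold change of each transcript, knockout minus wild type, with 95% confidence intervals, in neutrophils and LSK cells; filled symbols passed an adjusted p of 0.05 in edgeR. No member passed in neutrophils and 5 passed in LSK cells; intervals were narrower in LSK cells except for Tlr8 and Tlr13.

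Transcripts of 5 lists of genes around the receptors were also read in LSK cells. Of 4 tested genes of other family members, Ly86, which encodes the MD-1 partner of the receptor-like protein CD180, rose to 39.6 and 54.2 CPM in knockout, against 13.5 and 18.6 CPM in wild type. Tlr12, a receptor for profilin of parasites in mice, fell to 7.92 and 9.95 CPM in knockout, against 18.2 and 21.9 CPM in wild type. The other 2 did not pass. Of 7 genes of ligand delivery, 4 rose and 2 fell. Lbp, whose product carries lipopolysaccharide to CD14, rose to 143 and 158 CPM in knockout, against 68.5 and 66.0 CPM in wild type (log2 fold change 1.16, adjusted p = 4.68e-06, edgeR). Grn, Scarb2 and the integrin gene Itgam rose by less (log2 0.47, 0.35 and 0.39), and the integrin gene Itgb2 fell (log2 -0.55). Cd36, a scavenger receptor that assists TLR2, held 0 and 0.266 CPM in knockout, against 2.38 and 1.501 CPM in wild type, and passed as lower (adjusted p = 0.00421, edgeR). With 0 and 5 reads in knockout and 47 and 32 in wild type, it entered the test through the wild-type libraries, so a difference was built into its selection.

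Of 18 tested genes of receptor folding, trafficking and processing, 3 rose and 3 fell. Hsp90b1, the chaperone gp96 that folds Toll-like receptors, rose to 1308 and 1231 CPM in knockout, against 616 and 653 CPM in wild type. Slc15a4, an endosomal transporter needed for TLR7 and TLR9 signalling, and Rab7b also rose (log2 0.62 and 1.32). The cathepsin gene Ctsl, the kinase gene Syk and Pld3, an endosomal nuclease, fell (log2 -0.33, -0.40 and -1.30). Unc93b1, which escorts the nucleic acid receptors to endosomes, stood at 182 and 249.2 CPM in knockout and 211 and 212 CPM in wild type and did not pass (log2 0.03, adjusted p = 0.891, edgeR).

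Of 16 adaptors and kinases, Myd88 (log2 1.05), Traf3 (0.44) and Irf7 (0.42) rose, Irak2 (-0.47) and Irf5 (-0.67) fell, and 11 did not pass. Of 12 genes listed here as negative regulators 5 fell and 7 did not pass. Whether each of them restrains the receptors in these cells was not tested. Those that fell were Sigirr, an inhibitory receptor, the ubiquitin-editing Tnfaip3, the NF-kB inhibitor Nfkbia, and the ubiquitin ligases Peli1 and Rnf216. Their log2 fold changes ran from -0.81 for Peli1 to -0.32 for Rnf216. The median of the 12 was -0.20, beside -0.03 over all genes. The counts in all 5 lists stand beside 42.2% of all genes called.

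In neutrophils no member and no other gene passed the test across all genes. Of 12836 genes, 0 passed with edgeR (0%), 1787 had an unadjusted p under 0.05 (13.9%), and 891 passed with DESeq2. Of the 9 members tested, 4 had an unadjusted p under 0.05 (Tlr2, Tlr4, Tlr6 and Cd14), and only Cd14 passed with DESeq2 (adjusted p = 0.00178). In 5 of the 9 the knockout libraries all lay above the wild-type libraries, and in 0 below, where over all genes tested 17% lay above and 17.5% below (34.5% in all). The median log2 fold change of the members was 1.13, beside 0.02 over all genes. The 12 neutrophil markers had a median of 1.56, with 6 of them higher in knockout without overlap and none called; their part in the members' values was not tested. Upper-quartile scaling moved the median over all genes from 0.02 to -0.12. None of the genes of the surrounding lists passed, Myd88 among them (274, 345 and 237 CPM in knockout, against 156 and 118 CPM in wild type; adjusted p = 0.345, edgeR).

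Cd14 had the widest gap. It stood at 84.1, 314 and 173 CPM in knockout neutrophil libraries, against 28.9 and 33.4 CPM in wild-type neutrophil libraries. Every knockout library lay above both wild-type libraries, and the knockout libraries spread over more than the whole gap. The log2 fold change was 2.61 (SE 0.640, interval 1.10 to 4.13, adjusted p = 0.216, edgeR), and it ranged from 2.03 to 2.95 when each library was left out in turn. Tlr4 stood at 102, 61.0 and 50.3 CPM in knockout, against 30.8 and 12.8 CPM in wild type. The groups did not overlap, and the log2 fold change was 1.70 (SE 0.545, interval 0.42 to 2.99, adjusted p = 0.248, edgeR). It was 1.17 without the second wild-type library and 2.54 without the first. Ly96 overlapped, at 10.1, 15.3 and 10.3 CPM in knockout and 5.52 and 18.4 CPM in wild type.

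The lipoprotein receptors were also higher on average. Tlr2 stood at 231, 181 and 69.1 CPM in knockout neutrophil libraries, against 69.2 and 37.1 CPM in wild-type neutrophil libraries, so that the third knockout library met the first wild-type one. Its log2 fold change was 1.59 (SE 0.621, interval 0.13 to 3.06, adjusted p = 0.328, edgeR), and it ranged from 1.18 to 2.18 when each library was left out. Tlr6 stood at 27.4, 32.4 and 26.4 CPM in knockout, against 9.61 and 16.7 CPM in wild type, without overlap and with the narrowest knockout spread relative to its mean (28.7 ± 3.18 CPM, SD, n = 3). Its log2 fold change was 1.13 (SE 0.407, adjusted p = 0.294, edgeR). Tlr1 overlapped, at 13.9, 30.5 and 9.24 CPM in knockout and 2.74 and 28.4 CPM in wild type.

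Among the nucleic acid receptors, Tlr13 stood at 266, 312 and 127 CPM in knockout neutrophil libraries, against 94.9 and 111 CPM in wild-type neutrophil libraries. The lowest knockout library was just above the highest wild-type one (log2 fold change 1.19, SE 0.513, adjusted p = 0.369 in edgeR, interval -0.02 to 2.40). Tlr8 stood at 17.96, 14.1 and 11.4 CPM in knockout, against 9.75 and 10.4 CPM in wild type, also without overlap (log2 0.52, interval -0.44 to 1.49). Tlr7 overlapped, at 21.3, 43.1 and 32.2 CPM in knockout and 12.2 and 47.8 CPM in wild type. Tlr9 held 3, 7 and 0 reads in knockout and 5 and 92 reads in wild type, and was not tested.

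**Figure D3:**
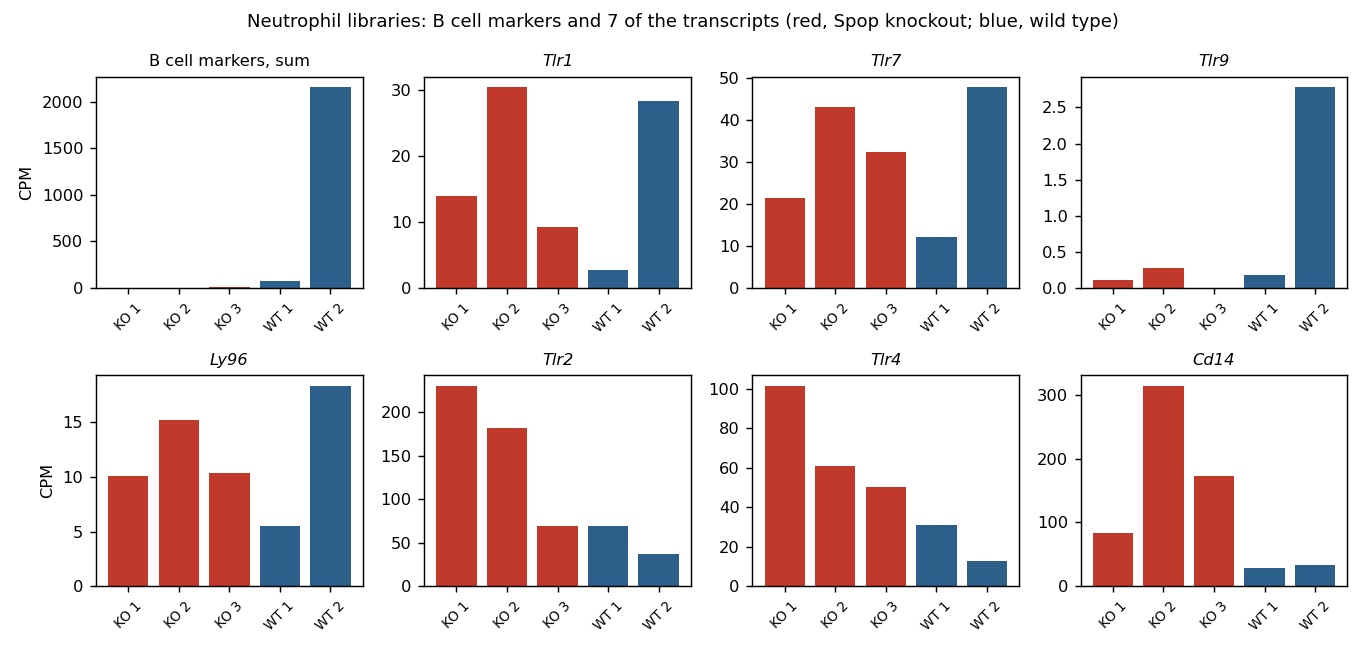
CPM in each neutrophil library of the summed B cell markers and of 7 of the transcripts; bars are single libraries, knockout in red and wild type in blue, each panel with its own scale from 0. The second wild-type library has the highest B cell sum (2155 CPM) and the highest Tlr7, Tlr9 and Ly96, and the lowest Tlr2 and Tlr4.

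Several of these values moved with the wild-type library that had the highest B cell marker levels. The B cell sum was 5.21, 3.87 and 10.52 CPM in knockout neutrophil libraries, against 79.0 and 2155 CPM in wild-type neutrophil libraries, with 3, 4 and 5 of the 11 markers at 0 reads in knockout and none at 0 in wild type. All monocyte and macrophage markers except Ly6c2 were also highest in the second wild-type library, with Csf1r at 409 CPM and at most 195 CPM elsewhere. Ly6c2 was lowest there, and the sum of these markers was 1790 CPM, against 1826 to 2569 CPM elsewhere. The second wild-type library also held the highest levels of Cd180 (33.6 CPM, at most 3.72 CPM elsewhere) and Ly86 (243 CPM, at most 55.7 CPM elsewhere). Without it, all 9 tested members had positive log2 fold changes, from 0.54 for Tlr8 to 2.69 for Cd14, and Tlr1, Tlr7 and Ly96 stood at 2.67, 1.37 and 1.08 in place of 0.20, 0.10 and -0.01. None passed (adjusted p from 0.539 to 0.730, edgeR), and with 1 wild-type library left that sample is assumed to vary like the knockout libraries. Without that library and the third knockout library the 9 values ran from 0.70 to 2.99, none called. The part of other cells in these values was not tested.

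**Figure D4:**
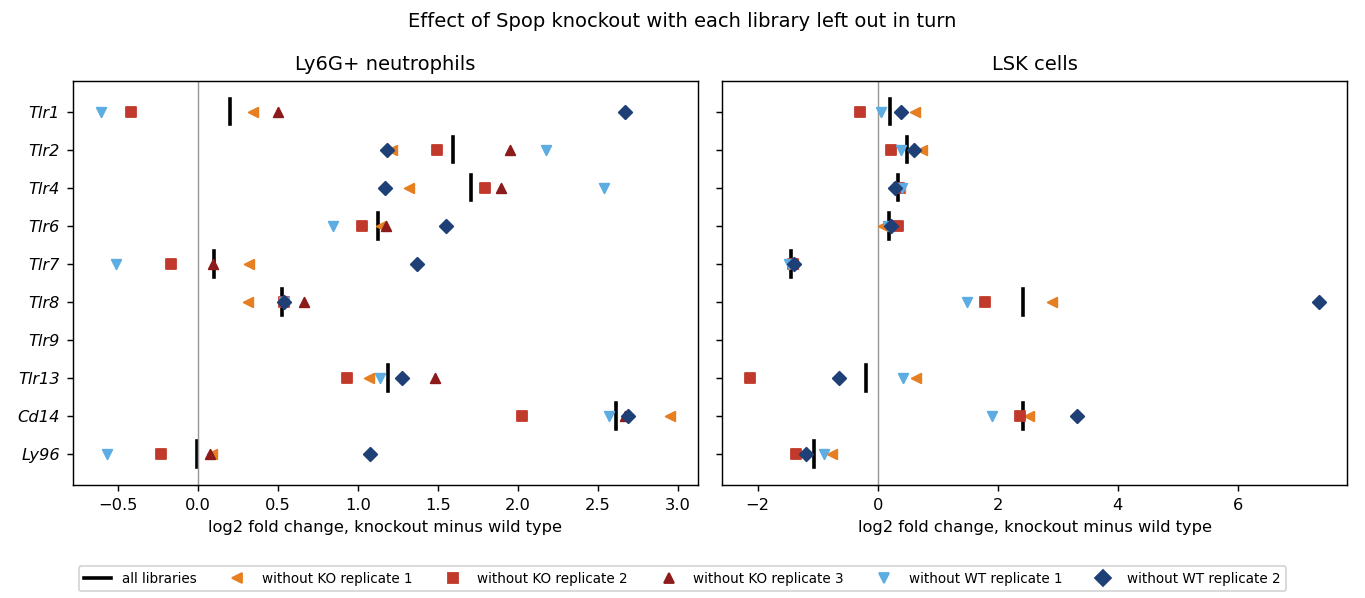
Log2 fold change of each tested transcript, knockout minus wild type, with all libraries (black bars) and with each library left out in turn (symbols), in neutrophils and LSK cells. In neutrophils Tlr1, Tlr7 and Ly96 changed most when the second wild-type library was left out, and in LSK cells Tlr7 stayed between -1.48 and -1.39.

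Whether the knockout effect differed between neutrophils and LSK cells was tested as an interaction in 1 fit of all 9 libraries. None of the 9 members tested passed (4 of 13387 genes did, 0.0299%), and 0 of 9 had an unadjusted p under 0.05, where 15.7% of all genes did. With limma voom and sample weights 0 members passed as well. For Tlr7 the effect was 1.51 log2 units higher in neutrophils than in LSK cells (SE 0.777, interval -0.28 to 3.30, adjusted p = 0.381, edgeR), and 2.84 without the second wild-type neutrophil library (adjusted p = 0.0873). For Cd14 the difference was 0.13 (SE 0.894, interval -1.93 to 2.19, adjusted p = 0.983, edgeR), with effects in that shared fit of 2.57 in neutrophils and 2.44 in LSK cells. For Tlr4 it was 1.32 (SE 0.665, interval -0.22 to 2.85, adjusted p = 0.373, edgeR). The intervals span more than 2 log2 units for each of the 9, so neither a difference nor its absence is shown. The fit shares 1 estimate of the spread between the populations, and in it the Tlr7 and Cd14 effects in LSK cells were not called either (adjusted p = 0.672 and 0.473).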

How the data were processed

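RNA had been extracted with RNeasy Micro columns and amplified with the SMART-Seq v4 kit, per the labels, which does not keep the strand. STAR, featureCounts, bcl2fastq and DESeq2, with the builds mm10 and GRCm38, appear in the submitters' processing notes; versions, annotation and counting settings are not stated there. The authors deposited raw read counts per gene, used in all tests, and a normalized table for each population (unit: signal), which equals the counts divided by 1 factor per library (0.681 to 1.31) and served only to check the counts.

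LSK identifiers were joined to symbols with GENCODE M21 (35412 of 37187 matched); 34431 genes were joined by symbol for fits over both populations. Counts were tested with edgeR 4.0.16 in R 4.3.3 (TMM, expression filter by group, robust quasi-likelihood F test, Benjamini-Hochberg, threshold 0.05). Alternatives used limma 3.58.1 and DESeq2 1.42.0, other scalings, no filter, a replicate block and each library left out. No replicate pair agreed within sampling noise (lowest chi-square per gene 9.87). The test procedure was run on simulated counts in which 60 genes were changed 2-fold, 70 were changed 4-fold and 70 were changed 32-fold. In LSK cells it recovered 73.3% of 2-fold and 88.6% of 4-fold changes. In neutrophils it recovered 0% and 7.14%, and for the difference between populations 1.67% and 4.29%. The absence of calls in those 2 comparisons therefore does not show an absence of changes of that size. False calls were 11 of 182 calls in LSK cells, 6 of 60 in neutrophils and 7 of 59 for the difference. In the LSK data 42.2% of genes were called, a far larger share than was changed in the simulation. The simulated rates therefore need not hold there. Counting floors of 3 reads cover counting error only, since reads carry no molecular identifiers. All 10 members, Spop and list genes past the threshold are named; Unc93b1, and Myd88, Cd180 and Ly86 in neutrophils, were named after their values were seen. The members and lists were chosen with earlier results of these data known. Figures were drawn with matplotlib 3.10.9 in Python 3.11.15.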

Additional observations from a re-analysis of the deposited data

How the results depend on the processing

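In LSK cells, leaving out each library in turn gave 2 to 5 called members and 3524 to 5718 called genes; upper-quartile scaling gave 3 members, and the fit of all 9 libraries gave 0 members and 0 genes. The lowest counts came without the first wild-type library (2 members, 3524 genes). Across 11 alternatives Tlr7 and Cd14 lost their call only in that shared fit, Ly96, Tlr2 and Tlr4 lost theirs in 5 each, and Tlr8 gained one in 5. Log2 fold changes turned sign for Tlr1 (leave-one-out range -0.30 to 0.63) and Tlr13 (-2.12 to 0.64).

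In neutrophils, 1 member was called without a filter (Cd14), with DESeq2 (Cd14) and with the replicate block (Tlr4, adjusted p = 0.0474), beside 334, 891 and 334 genes; the fit of all 9 libraries called 528 genes and 0 members. Leave-one-out gave 0 members and 0 to 601 genes, the highest without the first wild-type library. Signs turned in leave-one-out for Tlr1 (-0.61 to 2.67), Tlr7 (-0.51 to 1.37) and Ly96 (-0.57 to 1.08). They also turned for Tlr7 with upper-quartile scaling (-0.0690), and for Ly96 without a filter (0.0167), with limma voom (0.20), with sample weights (0.17), with the replicate block (0.30) and without both doubted libraries (1.18). In neutrophils, the sample weights and leaving out both libraries were chosen after seeing the data.

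For the difference between populations, 10 genes passed without a filter, 17 with limma voom and sample weights, 0 with the replicate block, and 0 to 1349 in leave-one-out, with 0 members throughout. Tlr1 turned sign with DESeq2 size factors (0.0486), weighted voom (0.64), the block (1.01) and in leave-one-out (-0.87 to 2.50), and Cd14 with weighted voom (-0.40), the block (-0.18) and in leave-one-out (-0.75 to 0.68). The cause of these changes was not tested.

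No label pairs the replicate numbers. Same-numbered libraries deviated together by a correlation of 0.00393 in LSK cells, and by 0.239 and -0.0241 for the first and second numbers of neutrophils, so the block describes numbers only. With it 5776 genes and 6 members passed in LSK cells. Tlr9 was too thinly counted to be tested in either population.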
